A study of Homo sapiens with 30 samples.

Results

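The MYCN T58A line is a stable derivative of SH-EP, an established human neuroblastoma (NB) cell line of mesenchymal identity that carries no MYCN amplification. A retroviral transgene drives MYCN with the T58A substitution in it from an exogenous promoter, and the parental SH-EP cells carry no transgene. Both were treated with DMSO, the vehicle, for 6 hours, and 3 RNA-Seq libraries of the T58A line are compared here with 3 of SH-EP, out of 30 libraries in all. The 3 T58A libraries are those of the single mutant. For some comparisons, the DMSO libraries of the lines with WT, S62A, or T58A S62A MYCN (3 each) and the libraries of T58A and SH-EP given 1 μM CYC065, a CDK inhibitor, for 6 hours (3 each) are also used. Nothing says that the libraries of a group came from separate cultures, so p-values measure only the spread between these libraries. The sources used here do not say that any line was made more than once, so an effect of the mutant cannot be told apart from one of the derivation of that line.

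MYCN is a basic helix-loop-helix transcription factor that pairs with MAX and binds E-box sequences. MYC proteins are known for raising ribosome production, nucleotide synthesis, and the cell cycle, and MXD proteins and MNT compete with them for MAX. Phosphorylation of the threonine that T58A removes marks MYCN for degradation, and so the mutant protein is held to be more stable. In NB, MYCN is the classical amplified oncogene, and NB cells occur in an adrenergic and a mesenchymal state.

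Levels are given in FPKM (fragments per kilobase of transcript, scaled to the mapped fragments of the library) as deposited, and changes are differences of log2(FPKM + 0.1), T58A minus SH-EP, from a limma fit of the 11575 genes whose mean over all libraries reached 1 FPKM. A gene passed the test with a Benjamini-Hochberg adjusted p under 0.05. Of the tested genes, 3571 (30.9%) passed and were higher in T58A, and 2702 (23.3%) passed and were lower. Of those, 491 (4.24% of tested genes) were 2-fold or more higher and 685 (5.92%) 2-fold or more lower. The 3 T58A libraries lay all above or all below the 3 of SH-EP for 66.4% of the tested genes. Read counts are unknown. From the steps between low FPKM values, the relative depth was 0.678 to 0.889 in SH-EP and 0.493 to 0.642 in T58A, where 1 is the deepest library, and 40.6% to 41.8% of all listed genes were at 0 in SH-EP against 43.5% to 44.4% in T58A. The part of depth in the results was not tested. The labels name no sequencing pools, but the index sequences they give for the SH-EP libraries recur in MYCN-line libraries, so a difference between runs cannot be told apart from one between SH-EP and the MYCN lines.

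The direction of many changes depended on the scaling. ERCC spike-ins, synthetic RNAs added in proportion to cell number, relate levels to the number of cells, whereas FPKM as deposited gives a gene's share of the RNA. As deposited, the median change of all tested genes was 0.05. After scaling to the spike-ins it was -0.88, a shift of -0.93, and 217 genes (1.87%) were then higher and 8987 (77.6%) lower. Of the genes higher as deposited, 209 remained higher with that scaling and 1774 passed the test as lower, and all 2702 genes that were lower as deposited remained lower. The log2 scaling factor from the spike-ins was 1.61 to 1.72 in the SH-EP libraries. It was 0.94 and 0.95 in T58A libraries 1 and 3, and library 2 stood apart at 0.26. Without library 2, the scaled counts were 305 higher and 7137 lower. Each value below is as deposited unless spike-in scaling is named, and where a group of genes is said to rise, its share of the RNA rose.

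**Figure D1:**
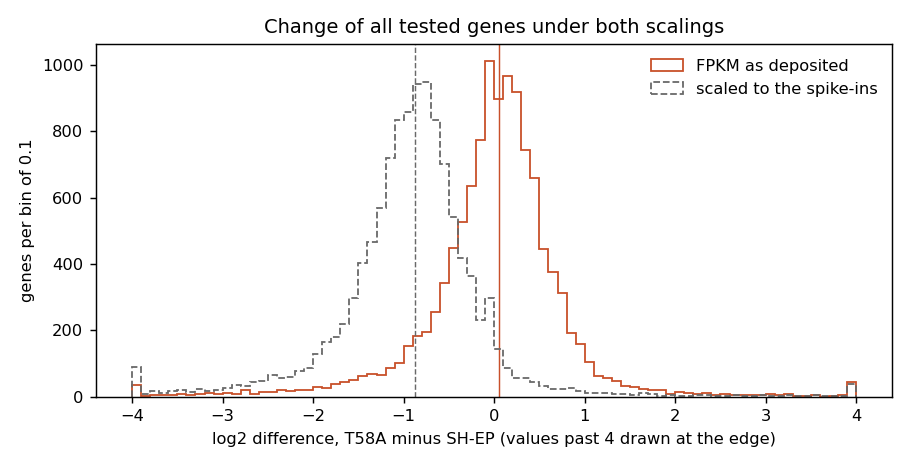
Number of tested genes (y axis, bins of 0.1) by their log2 difference between T58A and SH-EP (x axis). The solid outline is FPKM as deposited, with its median line at 0.05, and the dashed outline is FPKM scaled to the spike-ins, with its median at -0.88.

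MYCN (chromosome 2, 16080672 to 16087129 of GRCh37) was listed at 0 FPKM in each SH-EP library and at 7.27, 9.84, and 8.44 FPKM in the T58A libraries. This is the targeted gene, and its level fits the labels in all 6 libraries. The exact permutation test, two-sided, gave p = 0.1, the smallest that 3 libraries against 3 allow. MYC, the paralog expressed in the parent, was at 5.51, 4.64, and 4.68 FPKM in SH-EP and at 0.414, 0.468, and 0.457 FPKM in T58A, a change of -3.20 (SE 0.17, adjusted p = 1.51e-13 by limma). The groups lay far apart, and the 3 T58A libraries hardly differed from one another.

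Of the partners and antagonists of MYC proteins, some passed the test. MXI1, an MXD-family repressor that competes for MAX, was at 1.44, 1.04, and 1.26 FPKM in SH-EP and at 6.49, 6.19, and 5.76 FPKM in T58A, a rise of 2.22 (adjusted p = 8.54e-11 by limma) that stayed positive at 1.34 with spike-in scaling. MNT, another such repressor, rose by 1.10 (0.17 with spike-in scaling). MAX itself rose by 0.64 from 19.9 ± 0.805 to 31.2 ± 2.05 FPKM (SD, n = 3 each), but its change with spike-in scaling was -0.31. MGA (0.59 as deposited, -0.35 scaled) and MLXIP (0.37 and -0.57) behaved alike in that respect. MXD4 fell by 0.57. MXD1, MXD3, and MLX did not pass the test, with changes of -0.12, -0.47, and -0.02, and MYCL and MLXIPL were too low to be tested. Of the 11 tested network members, MYCN and MYC included, 6 were thus higher (54.5%) and 2 lower (18.2%), and without those 2 it was 5 and 1 of 9, beside 54.2% of all tested genes that passed in either direction.

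**Figure D2:**
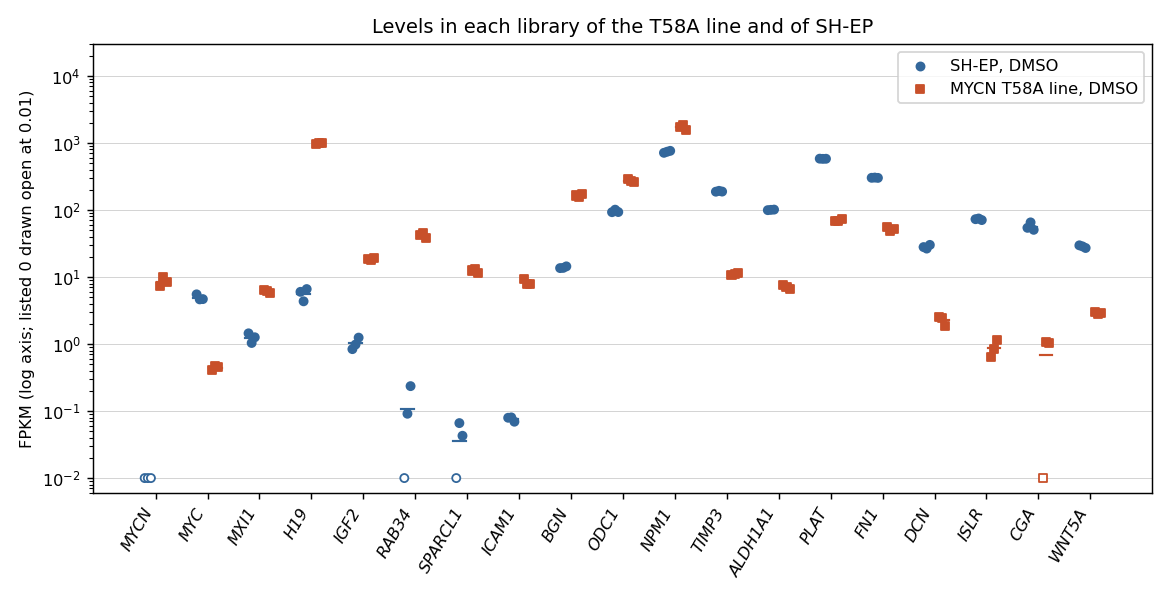
FPKM (y axis, log scale) of 19 genes in each DMSO library of SH-EP (blue circles) and of the T58A line (orange squares), with short lines at the group means. A listed 0 is drawn as an open symbol at 0.01. The groups do not overlap for any gene drawn. H19 stands at 956 to 1009 FPKM in T58A against 4.34 to 6.61 FPKM in SH-EP, and TIMP3 at 10.9 to 11.5 FPKM against 188 to 193 FPKM.

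The 12 largest rises among genes that reached a mean of 5 FPKM in either group were those of RAB34, H19, SPARCL1, MYCN, CDC42EP1, ICAM1, IER3, TUBA1C, SAA1, RCOR2, CARD9, and SNCG. RAB34 (chromosome 17, 27041299 to 27045447), a small GTPase of the Golgi and of cilium formation, was at 42.3, 45.0, and 38.0 FPKM in T58A and at 0, 0.09, and 0.24 FPKM in SH-EP. It was close to silent in the parent and well expressed in each T58A library. SPARCL1, a secreted matrix-associated protein, was at 12.5, 13.2, and 11.4 FPKM in T58A, and no SH-EP library exceeded 0.07 FPKM. ICAM1 (chromosome 19, 10381769 to 10397291), the adhesion receptor that leukocyte integrins bind, was at 9.38, 7.97, and 7.79 FPKM against 0.0794, 0.0804, and 0.0694 FPKM in SH-EP. H19 (chromosome 11, 2016396 to 2025782), an imprinted long noncoding RNA, was at 956, 987, and 1009 FPKM in T58A and at 6.01, 4.34, and 6.61 FPKM in SH-EP. This was a change of 7.44 (SE 0.11, adjusted p = 1.24e-24 by limma), or 174 times the parental mean, from low to among the abundant RNAs. TUBA1C, an α-tubulin gene, was at 311, 310.4, and 317 FPKM against 7.60, 9.52, and 6.88 FPKM, but it shares much sequence with other tubulin genes, and how reads were divided among them is uncertain. The fitted changes of genes near 0 in SH-EP depend on the pseudocount, and so RAB34, whose fitted change was 7.81, had one of 5.27 with a pseudocount of 1. All 12 rises held with spike-in scaling, where they ranged from 3.30 for SNCG to 7.74 for RAB34.

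The 12 largest falls included those of CGA, ISLR, PLSCR3, ASPN, ABCA8, WISP1, TIMP3, PSG4, ALDH1A1, and CRISPLD2. CGA (chromosome 6, 87795216 to 87804824), the common α subunit of the glycoprotein hormones, was at 54.2, 65.3, and 50.6 FPKM in SH-EP. It was listed at 0 in T58A library 1 and at 1.06 and 1.03 FPKM in the other two. ISLR (chromosome 15, 74466051 to 74469213), a secreted leucine-rich repeat protein of mesenchymal cells, was at 72.9, 74.6, and 70.8 FPKM in SH-EP and at 0.645, 0.835, and 1.15 FPKM in T58A. TIMP3 (chromosome 22, 33197691 to 33259028), a matrix-bound inhibitor of metalloproteinases, was at 188, 193, and 188 FPKM in SH-EP and at 10.9, 11.3, and 11.5 FPKM in T58A. This change of -4.07 had an SE of 0.05 and an adjusted p of 1.48e-26 by limma. ALDH1A1, an aldehyde dehydrogenase that makes retinoic acid, was at 99.5, 100.5, and 101 FPKM in SH-EP and at 7.65, 7.20, and 6.65 FPKM in T58A. ASPN, a small matrix proteoglycan, and WISP1, a matricellular protein of the CCN family, were at 10.0 to 11.1 and 5.16 to 5.43 FPKM in SH-EP and no higher than 0.386 and 0.321 FPKM in T58A. PLSCR3 rested on unequal values, at 0.01 (the smallest value above 0 in the table), 0.01, and 1.90 FPKM in T58A against 10.6, 9.22, and 10.1 FPKM, and PSG4 belongs to a family of near-identical genes, so its level is uncertain.

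The growth machinery on which MYC proteins are known to act took a larger share of the RNA in T58A. Of 32 genes of ribosome biogenesis and the nucleolus, 29 were higher and 1 lower (background 30.9% and 23.3%), with a median change of 0.71 as deposited and -0.25 with spike-in scaling. With the median of all tested genes subtracted, these are 0.65 and 0.63. RRP9, a component of the U3 particle that processes pre-ribosomal RNA, was at 22.3, 22.3, and 19.5 FPKM in SH-EP and at 56.1, 64.0, and 61.6 FPKM in T58A, the largest change of the list (1.50, adjusted p = 1.22e-13 by limma). NPM1, the abundant nucleolar chaperone nucleophosmin, was at 713, 740, and 763 FPKM in SH-EP and at 1758, 1873, and 1559 FPKM in T58A, a change of 1.22. WDR43, a factor of the small subunit, rose by 1.04. All 3 genes stayed positive with spike-in scaling, at 0.55, 0.27, and 0.09, but of the whole list only 1 gene then passed the test as higher and 11 as lower. NIP7 was the lower gene (-0.15), which did not pass without T58A library 2 (-0.14) or SH-EP library 3 (-0.13), and HEATR1 and RRN3 did not pass.

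The E-box CACGTG, the sequence that MYC and MAX dimers prefer, was looked for in RefSeq promoter windows of GRCh38, 250 bases before to 50 after each gene's start. It reads the same on both strands. Of the 11575 tested genes, 9113 had such a window, and 10.6% of the windows held the sequence. Among genes at least 2-fold higher in T58A, 60 of 359 windows (16.7%) held it, and among genes at least 2-fold lower, 18 of 515 (3.5%). Among genes that did not pass the test, 379 of 4000 (9.47%) held it. In the ribosome biogenesis list it was in 11 of 28 windows (39.3%), and in the list of purine, pyrimidine, and one-carbon synthesis in 6 of 22 (27.3%). Not all lists with rising members were above the background, since it was in 3 of 64 windows of cytosolic ribosomal proteins (4.69%), 6 of 68 of mitochondrial ribosomal proteins (8.82%), and 1 of 12 of aminoacyl-tRNA synthetases (8.33%). It was in 0 of 13 windows of collagen genes in 0 of 20 of matrix glycoproteins, and in 1 of 8 of matrix proteases and inhibitors (12.5%). A match is a description of these letters and not a binding site, and MYCN binding was not measured in these libraries. To show what such a sequence looks like beside rising genes, stretches upstream of the start are printed for UTP20 (chr12:101280055-101280104, plus strand) and EBNA1BP2 (chr1:43172762-43172820, minus strand) of the ribosome list, and for PPAT (chr4:56435752-56435837, minus strand), MTHFD1 (chr14:64388298-64388352, plus strand), and MTHFD1L (chr6:150866292-150866377, plus strand) of the nucleotide list. ITGA6 (chr2:172427195-172427280, plus strand), an integrin gene that fell by 0.89, is shown because it holds the same letters. Capitals mark the E-box.
UTP20: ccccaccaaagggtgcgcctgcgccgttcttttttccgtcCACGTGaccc
EBNA1BP2: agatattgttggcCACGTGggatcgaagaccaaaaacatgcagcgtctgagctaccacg
PPAT: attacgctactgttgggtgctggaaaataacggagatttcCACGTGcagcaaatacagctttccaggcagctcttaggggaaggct
MTHFD1: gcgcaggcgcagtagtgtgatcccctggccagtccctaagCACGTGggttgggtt
MTHFD1L: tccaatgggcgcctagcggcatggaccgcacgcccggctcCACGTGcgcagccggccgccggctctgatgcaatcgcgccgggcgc
ITGA6: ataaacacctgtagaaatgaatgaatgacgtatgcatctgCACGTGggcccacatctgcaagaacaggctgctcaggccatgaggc
The first 5 genes changed by 0.93, 0.66, 0.68, 0.62, and 0.66 in the order printed, all past the test as deposited.

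Lists of other parts of protein synthesis, of protein folding and breakdown, and of the respiratory chain had smaller median changes. Of 77 mitochondrial ribosomal proteins, 58 were higher and 4 lower (median 0.48 as deposited, -0.47 with spike-in scaling), led by MRPS2, a small-subunit protein, at 38.0, 34.8, and 34.2 FPKM in SH-EP and at 98.0, 96.5, and 94.7 FPKM in T58A. Of 80 cytosolic ribosomal proteins, 44 were higher and 2 lower (median 0.25, scaled -0.70). RPL21, the one with the largest change, ranged from 38.2 to 157 FPKM within SH-EP alone and did not pass without SH-EP library 3 (0.66) or T58A library 2 (1.12), and many of these genes have pseudogenes that can take their reads. Of 18 translation factors, 14 were higher and 0 lower (median 0.35, scaled -0.60). Among these was EIF5A, the translation factor that carries the polyamine-derived residue hypusine, at 541, 581, and 560 FPKM in SH-EP and at 952, 1061, and 1045 FPKM in T58A. Of 20 aminoacyl-tRNA synthetases, 14 were higher and 1 lower (median 0.35, scaled -0.60). Of 24 heat shock proteins and chaperonins, 16 were higher and 4 lower (median 0.30, scaled -0.65), with HSPE1, the mitochondrial co-chaperonin, at 1.34. Of 63 respiratory chain genes, 39 were higher and 5 lower (median 0.27, scaled -0.68), and of 37 proteasome genes, 16 were higher and 6 lower (median 0.08, scaled -0.87). The proteasome median was close to that of all tested genes, 0.05.

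Metabolic lists also held more higher than lower genes as deposited, but not evenly. Of 26 genes of purine, pyrimidine, and one-carbon synthesis, 22 were higher and 1 (IMPDH2) lower, with a median of 0.51 (scaled -0.45). MTHFD2, a mitochondrial folate enzyme, was at 73.4, 73.9, and 76.6 FPKM in SH-EP and at 175, 171, and 161 FPKM in T58A, and PFAS, an enzyme of purine synthesis, rose by 1.01. Of 9 polyamine genes, 5 were higher and 0 lower (median 0.31, scaled -0.64). ODC1, which makes putrescine and is a textbook MYC target, was at 92.8, 101, and 93.3 FPKM in SH-EP and at 286, 273.5, and 265 FPKM in T58A, a change of 1.52 (SE 0.05, adjusted p = 1.04e-17 by limma) that was 0.57 with spike-in scaling. Of 20 genes of amino acid transport and serine synthesis, 15 were higher and 0 lower (median 0.69, scaled -0.27). PSAT1, the aminotransferase of serine synthesis, was at 33.8, 33.7, and 32.4 FPKM in SH-EP and at 119, 117, and 106 FPKM in T58A, and SLC38A1, a glutamine transporter, at 16.4 to 17.4 and 48.3 to 54.4 FPKM. Of 23 genes of glucose uptake and glycolysis, 13 were higher and 5 lower (median 0.19, scaled -0.77), and the largest changes went both ways. HK2, the inducible hexokinase, rose by 1.94, whereas the neuronal-type glucose transporter SLC2A3 fell by 1.66 and PFKFB3, which makes the activator of phosphofructokinase, fell by 1.48 from 61.6 to 61.9 FPKM down to 20.2 to 23.2 FPKM. Of 20 genes of cholesterol and fatty acid synthesis, 10 were higher (50%) and 6 lower (30%), beside 30.9% and 23.3% of all tested genes. Their median of 0.10 (scaled -0.85) was close to that of all tested genes, 0.05 (scaled -0.88). The stearoyl-CoA desaturase gene SCD rose by 1.31 and the fatty acid synthase gene FASN by 0.98, and IDI1 of the isoprenoid pathway fell by 0.99.

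Cell cycle genes were also counted by phase. Of 24 DNA replication genes, 17 were higher and 0 lower (median 0.32, scaled -0.63), of 21 mitotic genes, 11 were higher and 2 lower (median 0.15, scaled -0.80), and of 18 regulators of G1/S, 10 were higher and 5 lower (median 0.23, scaled -0.72). CCNE1, cyclin E1, was at 4.57, 3.70, and 4.11 FPKM in SH-EP and at 10.5, 11.9, and 10.2 FPKM in T58A. CDK6 rose by 0.88 (scaled -0.07) and CDKN2D, an inhibitor of the G1 kinases, fell by 0.70. Of 18 p53 targets, 9 were higher and 4 lower (median 0.23, scaled -0.71), and with spike-in scaling 0 were higher and 15 lower. Among them, GDF15, a stress-induced cytokine, fell by 1.52 from 51.8 to 57.8 FPKM down to 18.2 to 19.6 FPKM. Of 11 BCL2-family genes, 5 were higher and 0 lower (median 0.42, scaled -0.48), and with spike-in scaling 0 were higher and 5 lower. BID, a pro-apoptotic member, was at 26.1, 25.8, and 23.0 FPKM in SH-EP and at 57.1, 63.0, and 54.5 FPKM in T58A, and the pro-apoptotic BBC3 rose by 1.11.

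Extracellular matrix and adhesion genes were mostly lower. Of 25 tested matrix glycoproteins and proteoglycans, 20 were lower and 2 higher, with a median of -0.99 (scaled -1.94). FN1, fibronectin (chromosome 2, 216225163 to 216300796), was at 302, 305, and 301 FPKM in SH-EP and at 55.0, 48.9, and 52.3 FPKM in T58A, a change of -2.54 (SE 0.06, adjusted p = 5.20e-21 by limma). DCN, decorin, fell by 3.58 to 1.83 to 2.56 FPKM. BGN, biglycan, which is close kin to decorin, moved the opposite way, from 13.6, 13.7, and 14.4 FPKM to 165, 156, and 175 FPKM, and its rise was 2.61 with spike-in scaling. All 18 tested collagen genes passed the test, 13 lower and 5 higher (median -0.55, scaled -1.50). The fibrillar COL1A1 was at 673, 646, and 595 FPKM in SH-EP and at 166.5, 167, and 190 FPKM in T58A, COL5A1 fell by 1.86, and COL3A1, from 522 to 542 FPKM, fell by 0.94. Those higher were COL16A1 (2.01), COL27A1 (1.87), COL7A1 (0.61), COL6A1 (0.51), and COL6A2 (0.42), of which the last 3 had scaled changes of -0.29, -0.44, and -0.53. COL6A3, the partner chain of COL6A1 and COL6A2 in type VI collagen, fell by 0.94.

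Of 15 proteases and inhibitors of the matrix, 12 were lower and 2 higher. The plasminogen activator PLAT was at 583, 579, and 581 FPKM in SH-EP and at 67.6, 68.1, and 72.7 FPKM in T58A, so that the groups lay far apart. Of 10 tested integrins, 9 were lower and 0 higher, with a median of -1.10 (scaled -2.06). ITGA1, a collagen receptor subunit, was at 102, 98.4, and 105 FPKM in SH-EP and at 15.7, 16.3, and 16.2 FPKM in T58A, and ITGAV was the integrin that did not pass (-0.08). Of 9 cadherins and adhesion receptors, 5 were lower, among them CDH11, CDH2, and VCAM1 at -1.62, -1.35, and -1.40, and 3 were higher, which were ICAM1, CDH13, and MCAM. Of 17 contractile genes, 13 were lower and 2 higher. TPM1 and TPM2, both tropomyosins, moved in opposite directions, TPM1 from 647 to 668 FPKM down to 289 to 308 FPKM and TPM2 from 157 to 164 FPKM up to 327 to 359 FPKM.

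**Figure D3:**
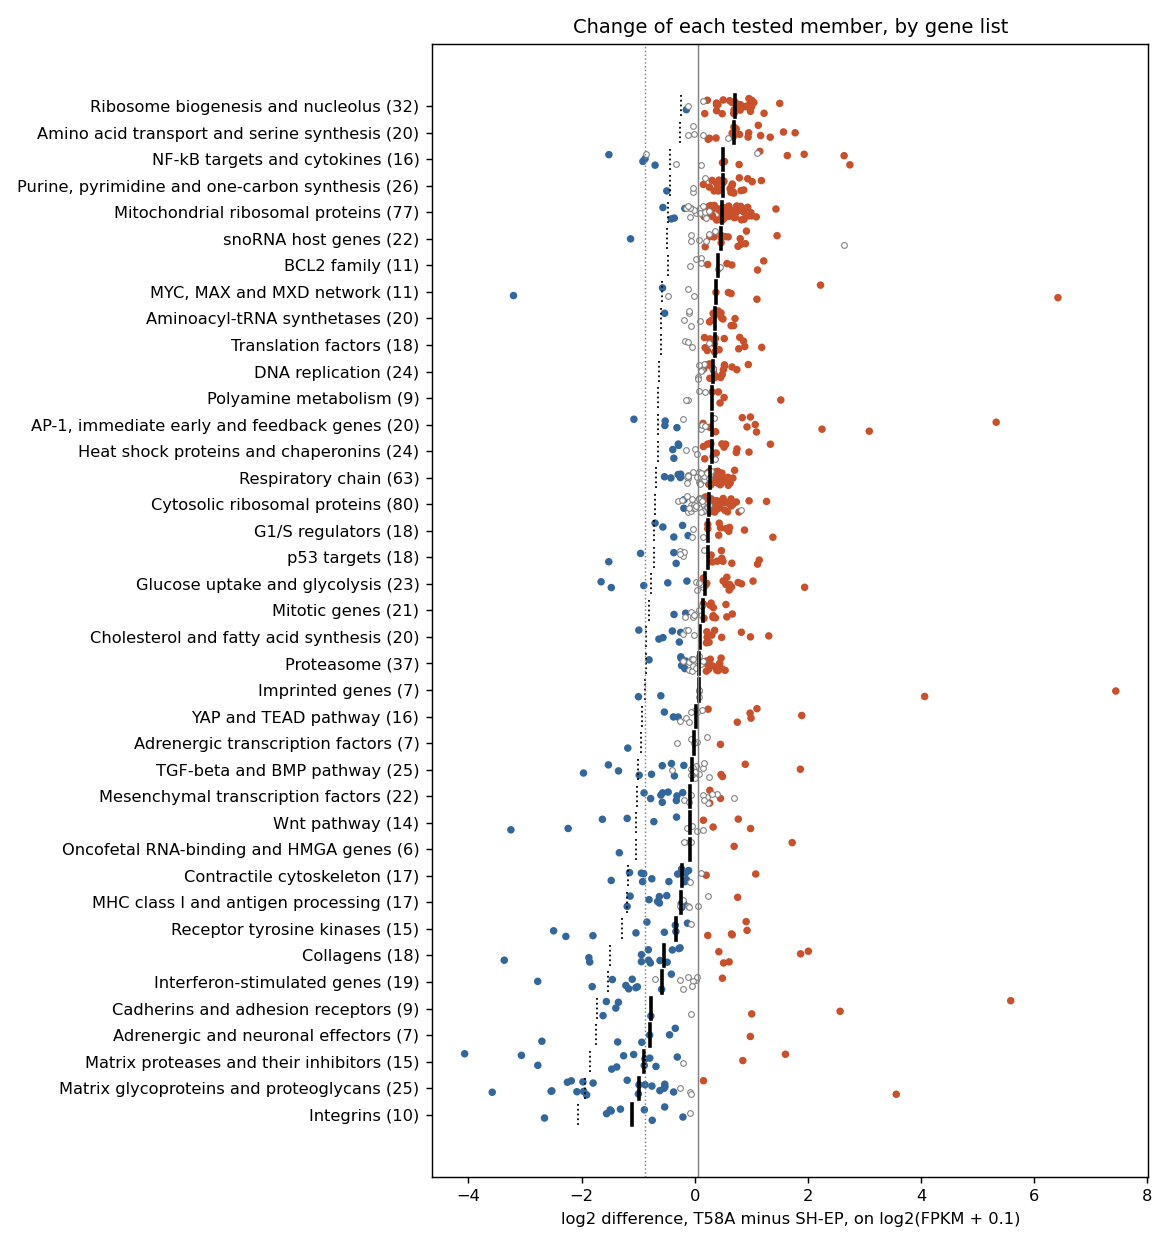
Log2 difference between T58A and SH-EP (x axis) of each tested member of 39 gene lists (y axis, number tested in brackets), ordered by median. Orange and blue points passed the test as higher or lower and open points did not, black bars are list medians as deposited, dotted bars are medians with spike-in scaling, and grey lines are the medians of all tested genes. Ribosome biogenesis stands at the top with a median of 0.71 and integrins at the bottom with -1.10, and no list has a positive median with spike-in scaling.

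Signalling lists held genes of both directions. Of 14 Wnt genes, 4 were higher and 6 lower, and WNT5A, a ligand of the β-catenin-independent branch, was at 29.7, 28.6, and 27.1 FPKM in SH-EP and at 3.05, 2.78, and 2.88 FPKM in T58A. The secreted modulator DKK3 and the receptor FZD2 fell by 2.24 and 1.63. Of 15 receptor tyrosine kinases, 9 were lower and 5 higher. PDGFRA, a receptor of mesenchymal cells, fell by 2.49, and FGFR3 rose by 0.92 (scaled -0.01). Of 25 TGF-β and BMP genes, 9 were lower and 4 higher. The latent TGF-β binding proteins LTBP1 and LTBP2 fell by 1.97 and 1.53, the receptor TGFBR2 by 1.35, and the ligand TGFB3 rose by 1.87. Of 16 YAP and TEAD genes, 6 were higher (37.5%) and 3 lower (18.75%), near the shares of all tested genes (30.9% and 23.3%). Their median change was 0.01, and with spike-in scaling 1 was higher and 11 lower. Single members moved more, with TEAD3 and TEAD4, DNA-binding partners of YAP, up by 1.89 and 1.10.

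Markers were checked for the labelled identity. All 10 mesenchymal NB markers were expressed in both lines, with a summed level of 4367 to 4529 FPKM in SH-EP and 2301 to 2330 FPKM in T58A. Of these, 8 were lower, 1 was higher, and VIM alone was at 2425 to 2540 FPKM in SH-EP and 1453 to 1486 FPKM in T58A. Of 11 adrenergic markers, those listed at 0 in all 6 libraries included PHOX2A, DBH, CHGA, and HAND1. The summed level of the list was 104 to 108 FPKM in SH-EP and 104 to 116 FPKM in T58A, most of it HAND2. Of its 4 tested members, GATA2 and CHGB were higher (0.45 and 0.98), GATA3 fell by 1.18, and HAND2 did not pass (0.05). CHGB was low in both lines, at 0.980 to 1.06 FPKM in T58A and 0.362 to 0.700 FPKM in SH-EP. With spike-in scaling, 0 of 7 tested adrenergic transcription factors, GATA2 among them, were higher, and 7 were lower. Of 22 mesenchymal transcription factors, 9 were lower and 3 higher, with SNAI2, a repressor of epithelial genes, at -0.90. Of 7 tested adrenergic and neuronal effectors, 6 were lower and 1 (CHGB) higher, and with spike-in scaling 6 were lower and 0 higher. Among them, SCG2, a secretory granule protein, was at 76.3, 80.0, and 78.7 FPKM in SH-EP and at 11.5, 12.5, and 11.9 FPKM in T58A. Of 26 markers of leukocytes, endothelium, epithelium, and Schwann or melanocytic cells, 23 stayed under 1 FPKM in all 6 libraries. The exceptions were CD68, which is found in many lysosome-rich cells and fell from 15.8 to 19.4 FPKM down to 2.54 to 4.07 FPKM, S100B, which fell from 5.01 to 6.34 FPKM down to 0.455 to 1.09 FPKM, and MITF, which rose from 1.60 to 1.91 FPKM to 2.58 to 3.29 FPKM (0.68, scaled -0.23). The summed levels of these lists in SH-EP and T58A reached 19.7 and 4.58 FPKM for leukocytes, nearly all of it CD68. For endothelium they reached 0.528 and 0.358 FPKM, and for epithelium 0.0696 and 0.148 FPKM. They reached 9.24 and 4.64 FPKM for Schwann and melanocytic cells, with SOX10 at 0 throughout. In bulk samples, fewer cells of a kind and less RNA per cell cannot be told apart.

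Inflammatory genes split. Of 19 interferon-stimulated genes, 10 were lower and 1 higher (median -0.59, scaled -1.54). IFI44 was at 12.5, 12.5, and 14.3 FPKM in SH-EP and at 2.13, 1.71, and 1.67 FPKM in T58A, and IRF9, the DNA-binding subunit of the factor ISGF3, fell by 1.81. ISG15 and IFITM3 did not pass, with changes of 0.03 and -0.03. Of 17 genes of MHC class I and antigen processing, 10 were lower and 1 higher. Of 16 NF-κB targets and cytokines, by contrast, 8 were higher and 4 lower (median 0.51, scaled -0.44). With spike-in scaling, however, 4 of them were higher and 9 lower. BIRC3, an inhibitor of apoptosis, was at 0.192, 0.231, and 0.330 FPKM in SH-EP and at 2.52, 1.94, and 1.79 FPKM in T58A. NFKBIA, the inhibitor that NF-κB itself induces, rose by 1.15, TNFAIP3 by 1.64, and CXCL2 by 1.93, and these 3 remained positive with spike-in scaling, whereas PTGS2 fell by 1.52. Of 20 AP-1, immediate early, and feedback genes, 11 were higher and 4 lower. FOS was at 9.72, 11.1, and 9.39 FPKM in SH-EP and at 53.1, 43.3, and 48.2 FPKM in T58A, FOSB rose by 3.08, and JUN fell by 1.08.

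Among developmental genes, IGF2, the imprinted growth factor gene next to H19 (chromosome 11, 2150342 to 2179621), was at 0.839, 0.982, and 1.25 FPKM in SH-EP and at 18.4, 17.9, and 19.1 FPKM in T58A. H19 and IGF2 were the 2 higher genes of 7 tested imprinted genes, and 2 were lower. LIN28B, which blocks maturation of let-7 microRNAs, rose by 1.72 from 0.707 to 0.957 FPKM to 2.37 to 3.24 FPKM, and HMGA2, a let-7 target, fell by 1.33. Of 22 snoRNA host genes, 14 were higher and 1 lower, and SNHG25 ranged from 46.6 to 269 FPKM within SH-EP, so that its change of 2.63 did not pass (adjusted p = 0.217 by limma). Without T58A library 2, 29 of 32 ribosome biogenesis genes were higher, and 20 of 25 matrix glycoproteins, 9 of 10 integrins, and 12 of 18 collagens were lower.

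To see what set the T58A line apart from the other MYCN lines, it was compared with each of them. Against WT, 1233 genes (10.7%) were higher and 1504 (13.0%) lower in T58A, against S62A 1954 (16.9%) and 1848 (16.0%), and against T58A S62A 1078 (9.31%) and 859 (7.42%). In all 3 of these contrasts, which share the T58A libraries, 316 genes (2.73%) were higher and 240 (2.07%) lower. Growth lists that rose against SH-EP had more genes lower than higher against WT. Ribosome biogenesis had 4 higher and 12 lower, cytosolic ribosomal proteins 0 and 22, and mitochondrial ribosomal proteins 4 and 17. Against S62A these were 7 and 3, 14 and 7, and 26 and 7. With spike-in scaling, 0 genes of each of these lists were lower than in WT. MYCN itself averaged 8.52 FPKM in T58A, 12.9 in WT, 5.72 in S62A, and 13.5 in T58A S62A, so the T58A line was not the one with the most MYCN RNA. By limma it was lower in T58A than in WT (-0.60, adjusted p = 0.0102) and T58A S62A (-0.62, adjusted p = 0.0108). It was higher than in S62A (0.56, adjusted p = 0.0116). The exact permutation test, two-sided, gave p = 0.1 against WT and S62A, the smallest possible, and p = 0.2 against T58A S62A. There the libraries overlapped, at 7.27 to 9.84 FPKM in T58A and 9.06 to 15.7 FPKM in T58A S62A. MYC was at 0.414 to 0.468 FPKM in T58A and at 0.993 to 1.13 FPKM in WT, and it was also lower than in S62A (-1.59), while against T58A S62A its difference of -0.12 did not pass.

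The genes above all 3 other lines included genes of a few pathways. Members named in this paragraph and the next beyond the rule for named genes were chosen after their values were seen. Of the 20 genes of amino acid transport and serine synthesis, 9 were above all 3 (background 2.73%), among them the whole serine pathway of PHGDH, PSAT1, and PSPH, the transporters SLC7A5, SLC3A2, and SLC38A1, asparagine synthetase ASNS, and ATF4, the transcription factor that responds to amino acid shortage. PSAT1 was at 106 to 119 FPKM in T58A, 61.5 to 62.3 in WT, 63.8 to 68.5 in S62A, and 65.6 to 75.7 in T58A S62A, so that the T58A libraries stood alone. CHAC1, an ATF4 target, was at 7.27 to 9.06 FPKM in T58A and no higher than 4.34 FPKM in any library of the other lines. TRIB3, SESN2, and DDIT3 did not stand above all 3 lines. TRIB3 passed the test only against S62A and SESN2 only against WT. DDIT3 passed against none of them, with a mean of 11.7 FPKM in T58A and 14.6 FPKM in S62A. Of 20 aminoacyl-tRNA synthetases, AARS, CARS, GARS, and IARS were also above all 3 and RARS was below. Of 20 cholesterol and fatty acid genes, 6 were above, with SCD at 130 to 139 FPKM against 67.6 to 120.3 FPKM elsewhere. Of 16 NF-κB targets, 6 were above, namely BIRC3, NFKBIA, NFKB1, NFKB2, CXCL8, and IL11. CXCL8 and IL11 did not pass against SH-EP, and of the list LIF was below all 3.

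Matrix genes gave a mixed picture, since several fell less in T58A than in the other lines. Of 18 collagens, 7 were above all 3 other lines and 0 below, and of 25 matrix glycoproteins and proteoglycans, 7 were above and 2 below. Of those above, COL27A1, COL6A1, COL6A2, and BGN were higher than in SH-EP, and the rest had fallen from it. COL3A1, for example, was at 522 to 542 FPKM in SH-EP, 269 to 284 in T58A, and 163 to 223 in the other MYCN lines, and PRRX1, a mesenchymal transcription factor, was at 107 to 117, 83.9 to 95.3, and 34.0 to 57.1 FPKM. FN1, at 48.9 to 55.0 FPKM in T58A, was at 27.0 to 38.1 FPKM in the others. TIMP3, SPP1, and POSTN went the other way, with POSTN (periostin) at 157 to 163 FPKM in SH-EP, 34.0 to 40.6 in T58A, and 76.6 to 242 in the others. Among genes whose mean reached 5 FPKM in any MYCN line, the 6 with the largest mean difference above were ICAM1, RAB34, SPARCL1, EMILIN2, SLIT2, and TMEM119, and the 6 below were CHI3L1, MAGEA11, POSTN, BST2, GDF15, and TGFA. ICAM1 exceeded 1.47 FPKM in no library of the other MYCN lines, and RAB34 reached 11.2 FPKM in WT at most. SLIT2, an axon guidance ligand, was at 17.7 to 19.1 FPKM in T58A, 8.45 to 8.90 in SH-EP, and 0.795 to 0.902 in S62A. TMEM119 did not pass against SH-EP (-0.43), where it was at 7.51 to 9.58 FPKM, and was at 5.24 to 6.88 FPKM in T58A against 0.218 to 3.12 FPKM in the others. Spike-in scaling shifted the median gene by 0.28 against WT, 0.98 against S62A, and -0.12 against T58A S62A, and of the 20 amino acid genes it left 8, 19, and 2 past the test as higher, where 13, 11, and 10 had been. Against T58A S62A with that scaling, 0 of 20 synthetases, 0 of 20 cholesterol and fatty acid genes, 1 of 16 NF-κB targets, 3 of 18 collagens, and 3 of 25 matrix glycoproteins were higher, where 8, 15, 6, 10, and 11 had been, so these counts above all 3 lines hold for FPKM as deposited.

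**Figure D4:**
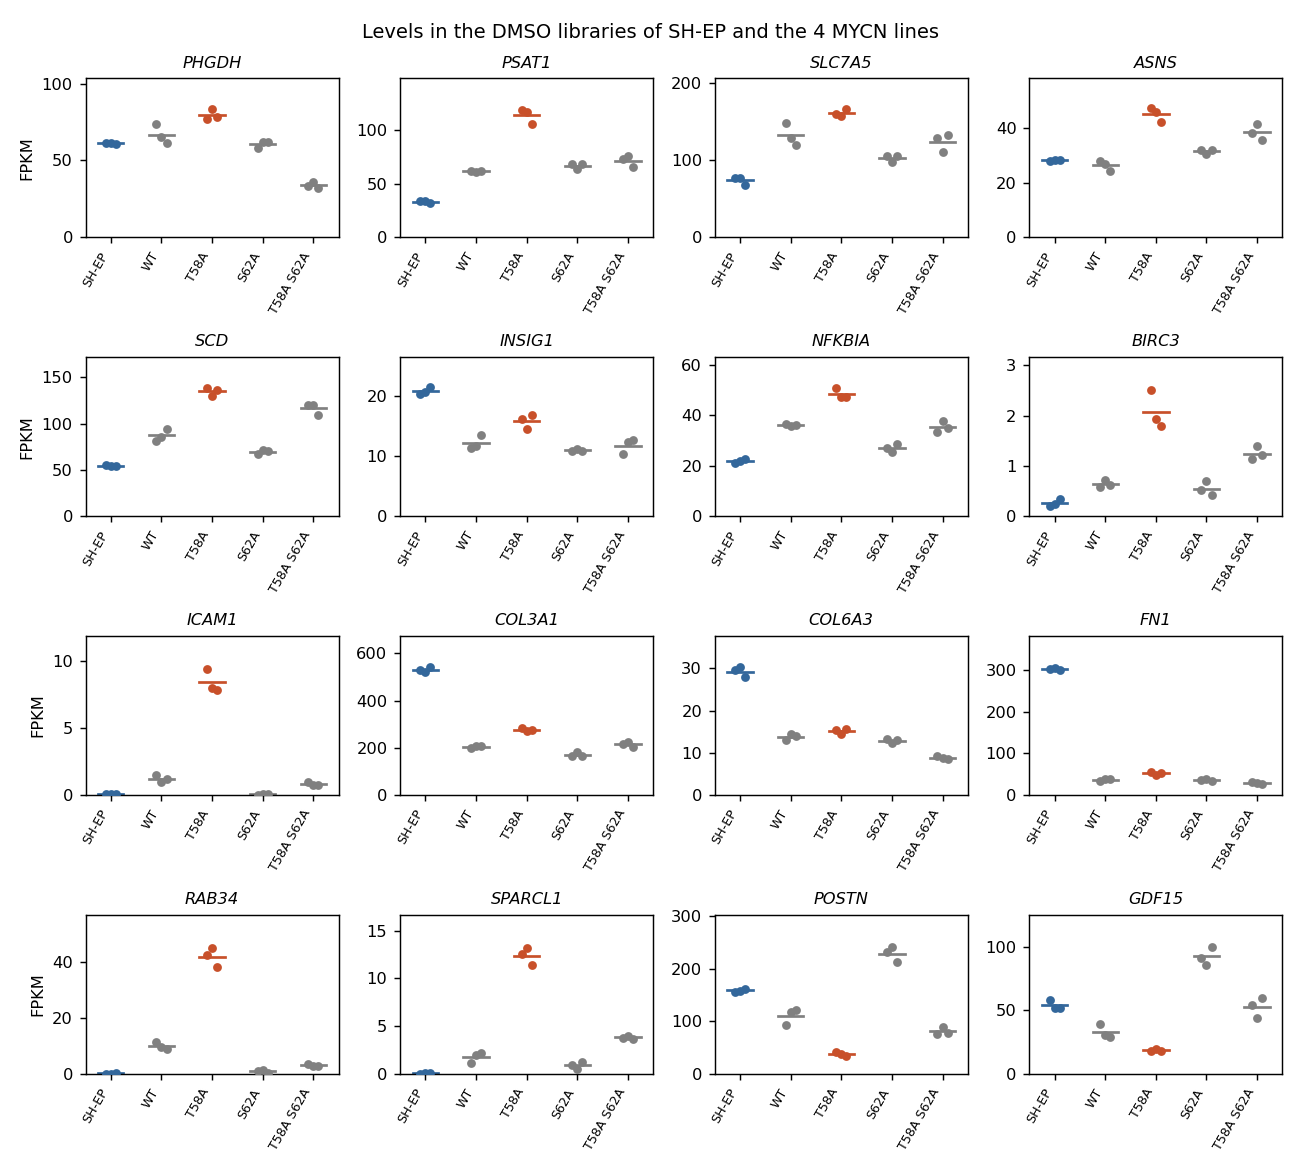
FPKM (y axes, from 0) in the 3 DMSO libraries of SH-EP (blue), the T58A line (orange), and the WT, S62A, and T58A S62A lines (grey) for 16 genes, with lines at the group means. PSAT1, NFKBIA, BIRC3, ICAM1, RAB34, and SPARCL1 are highest in T58A among all 5 lines, COL3A1 and FN1 lie between SH-EP and the other MYCN lines, and POSTN and GDF15 are lowest in T58A.

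The libraries given CYC065 allowed the same 2 lines to be compared in RNA of other cells. Of the 6273 genes (54.2%) past the test in DMSO, 93.3% differed in the same direction between T58A and SH-EP with CYC065, against 65.0% of the 5302 genes that had not passed. Of the genes that had passed with at least a 2-fold change, 97.3% did. All 12 largest rises and all 12 largest falls passed the test in the same direction with CYC065 (background 66.5% in either direction). TIMP3 was at 12.5 to 13.5 FPKM in T58A and 309 to 316 FPKM in SH-EP with CYC065. All 18 collagens and all 9 integrins past the test kept their direction, as did 29 of 30 ribosome biogenesis genes. The amino acid genes did not do so evenly. Of 15 that were higher in DMSO, 10 kept their direction, and ASNS, which was at 42.5 to 47.5 FPKM in T58A and 28.0 to 28.4 in SH-EP with DMSO, was at 26.1 to 31.3 and 57.4 to 58.4 FPKM with CYC065 (adjusted p = 3.84e-12 by limma). TRIB3, PHGDH, and SLC7A1 were likewise lower in T58A with CYC065. Of the 15 aminoacyl-tRNA synthetases past the test in DMSO, 6 kept their direction. The drug-treated libraries are of the same lines, so they give no check of how a line was derived. Since the labels name no sequencing pools, they also give no check of a difference between runs.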

How the data were processed

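RNA-Seq of 30 libraries was analysed (SH-EP and 4 MYCN lines, DMSO or CYC065, 3 libraries each). Libraries were stranded and poly(A)-selected, with ERCC spike-ins in proportion to cell number. The authors aligned reads with HISAT2 to hg19 and made the deposited FPKM with Cufflinks. The annotation is not given in the sources used here. Groups came from the sample labels. Genes whose mean reached 1 FPKM were tested on log2(FPKM + 0.1) in limma 3.58.1 (R 4.3.3), with a mean-variance trend, no robust step, and all 10 groups in the same fit. Spike-in scaling equalised the median log2 level of 55 of 92 spike-ins. Positions came from the lifted GENCODE annotation of GRCh37, which has 97.8% of tested genes, and promoters from RefSeq (GRCh38.p14). FPKM carry no read counts, so no interval from counting error is given. On simulated data for the comparison of T58A with SH-EP, 200 of 11575 genes were given a change. Of these changes, 95 of 100 of 2-fold and 94 of 100 of 4-fold were recovered, and 8 unchanged genes were called. In the data 54.2% of the tested genes passed, so the simulation gives no count of false calls among them.

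The genes compared and the gene lists were chosen with earlier results of these data known. Named genes are the 12 largest rises and falls past the test among genes of at least 5 FPKM whose groups do not overlap (small RNA genes excluded), the 3 largest changes of each list, the MYC network, and the 6 largest differences in each direction from all 3 other MYCN lines. Only some are printed, and a few genes that the rule names are not reported here. Other list members are named where a count rests on them, after their values were seen. The alternatives were other pseudocounts and filters, spike-in scaling, median centring, other sets of groups in the fit, robust eBayes, and each library left out. Spike-in scaling without each T58A library was added after seeing the data.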

Additional observations from a re-analysis of the deposited data

Results flagged for a closer look

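For 6 of the genes named for their rank, T58A and another MYCN line lay on opposite sides of SH-EP, each past the test. All 6 had been ranked among genes past the test against all 3 other MYCN lines. That the lines differed from each other by limma was thus part of the choice, and those p-values are no separate support. SLIT2 was 1.06 above SH-EP in T58A and -3.21 in S62A, a difference between the lines of 4.27 (adjusted p = 6.40e-23). EMILIN2, an elastic fibre glycoprotein, was 0.57 above SH-EP in T58A and differed by 3.50 from S62A and by 3.16 from T58A S62A, which were -2.93 and -2.58 against SH-EP, but its rise in T58A did not pass without T58A library 2 (0.51). POSTN was -2.08 in T58A and 0.52 in S62A, a difference of -2.60 (adjusted p = 2.53e-17). GDF15 was -1.52 in T58A and 0.78 in S62A, a difference of -2.30. MAGEA11, a cancer-testis antigen gene, was -0.83 in T58A, 1.61 in WT, and 2.39 in S62A, differences of -2.44 and -3.22. BST2, an interferon-induced tether of viruses, was -1.22 in T58A and 1.64 in T58A S62A, a difference of -2.85 (adjusted p = 3.37e-07). The contrasts with SH-EP share its libraries. With spike-in scaling, POSTN (-3.04 in T58A and -1.43 in S62A), GDF15 (-2.47 and -1.17), and EMILIN2 (-0.36 in T58A, with -4.79 in S62A and -3.50 in the double mutant) no longer lay on opposite sides of SH-EP. SLIT2 (0.11 in T58A, adjusted p = 0.596) and MAGEA11 (0.39 in WT, adjusted p = 0.158, and 0.48 in S62A, adjusted p = 0.0800) did so only with 1 side short of the test, and BST2 did so with both sides past it (-2.19 and 0.84). The differences between the lines passed the test for all 6 genes under that scaling as well.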

How the results depend on the processing

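Spike-in scaling moved the results most. With it, 217 genes were higher and 8987 lower in T58A than in SH-EP, 130 and 4612 of them by 2-fold or more. Without T58A library 1, 2, or 3 these were 180, 305, and 177 higher, 9162, 7137, and 9239 lower, 130, 171, and 121 higher by 2-fold, and 5531, 2914, and 5554 lower by 2-fold. The counts against WT, S62A, and T58A S62A became 994, 10228, and 317, the count apart from all 3 became 70, the share with the same direction in CYC065 95.2%, and MYCN 14.0 ± 2.27 FPKM (SD, n = 3). Changes of named genes turned negative for AARS (-0.65), ASNS (-0.27), ATF4 (-0.26), CARS (-0.54), CDK6 (-0.072), COL6A1 (-0.44), COL6A2 (-0.53), COL7A1 (-0.29), EBNA1BP2 (-0.29), EIF5A (-0.091), EMILIN2 (-0.36), FGFR3 (-0.0092), GARS (-0.27), IARS (-0.24), MAX (-0.31), MGA (-0.35), MITF (-0.23), MLXIP (-0.57), MTHFD1 (-0.33), MTHFD1L (-0.29), NFKB1 (-0.43), NFKB2 (-0.46), PHGDH (-0.58), PPAT (-0.27), SLC3A2 (-0.16), SLC7A1 (-0.71), GATA2 (-0.50), and UTP20 (-0.015). Fitting only the compared groups gave 1532 genes against WT, 3394 against S62A, 698 against T58A S62A, and 197 apart from all 3. Against SH-EP the same kind of fit gave more genes, 3853 higher and 2893 lower, where 3571 and 2702 had been. A filter at 5 FPKM gave 276 genes higher and 336 lower by 2-fold, and no filter gave 749 and 1181, since other numbers of genes are tested. Relative to all tested genes, the median of the MYC network list was -0.10 with the 5 FPKM filter and -0.016 without a filter, and that of the Wnt list was 0.12 without a filter. The cause of the other differences was not tested. Leaving out each library in turn gave 3219 to 3352 genes higher and 2459 to 2540 lower than in SH-EP, and 439 to 542 apart from all 3. Depth limits low genes, and FPKM without counts give no bound for a listed 0. No paired analysis was possible because the table's columns carry no replicate number that matches the labels.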

Other observations

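Of 7 tested adrenergic transcription factors, 1 was higher (GATA2, 0.45 as deposited and -0.50 with spike-in scaling) and 1 lower (GATA3). Of 6 oncofetal RNA-binding and HMGA genes, 2 were higher and 1 lower.

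The median change of tested genes by chromosome ranged from -0.0041 to 0.19, the highest being that of chromosome 9 (462 genes), which was 0.17 in the CYC065 libraries and 0.10 in each of the WT, S62A, and T58A S62A lines against SH-EP.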
